A study of Homo sapiens with 8 samples.

Results

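The 10 genes described here are 8 that interferon is known to induce, the ADP-ribosyltransferases PARP9, PARP10, PARP12 and PARP14, the PARP9 partner DTX3L, the paralogues SAMD9 and SAMD9L and the helicase DDX60, together with PARP1 and PARP2, 2 members of the same enzyme family that are not known for interferon induction. They were chosen by name, with earlier results of these data known, and are 10 of the 60675 genes listed. All 10 were counted well enough to be tested. RNA was sequenced in 8 libraries, 4 groups of 2, from Panc10.05, an established cell line of human pancreatic cancer. Parental untreated cells received no indisulam, and parental indisulam cells received 2 µM indisulam for 18 h. Resistant untreated and resistant indisulam cells both descend from Panc10.05 cultures adapted to rising doses of indisulam, a sulfonamide that directs the splicing factor RBM39 to a ubiquitin ligase for degradation. Per the study, the former had spent a week without drug and the latter were kept in 2 µM, so parental and resistant cells differ in length of exposure as well as in line. Both resistant groups come from 1 resistant line, and the paired libraries are described as technical replicates, so p-values measure only the spread between these libraries. The growth and treatment notes name A549, a lung cancer line, whereas titles and cell line labels name Panc10.05, and the latter were followed.

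Interferons bind receptors on the cell surface whose kinases, JAK1 and TYK2 for the type I and type III cytokines, activate transcription factors of the STAT family. A complex that holds STAT2 and IRF9 binds the interferon-stimulated response element (ISRE), whereas STAT dimers bind the gamma-activated site (GAS). PARP enzymes move ADP-ribose from NAD+ onto proteins or nucleic acids. PARP1 and PARP2 build long poly(ADP-ribose) chains at DNA breaks, whereas the interferon-linked members mostly add single units or, like PARP9, work through a partner, and many of them restrict viruses. In epithelial tumour cells such genes are known to be switched on together with other interferon-stimulated genes.

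The promoter sequences are shown first because they do not depend on the levels measured here. The interferon-linked members were listed because interferon is known to induce them. ISRE letters among them therefore describe the genes chosen and test nothing about these cells. RefSeq windows on GRCh38.p14, from 250 bases before to 50 after an annotated start, were given for 9 of the 10 genes, PARP10 being without one. Each window was searched on both strands for the ISRE letters (TTTC, any 2 bases, TTTC) and the GAS letters TTCNNNGAA, N being any base. ISRE letters were found in the windows of 6 of the 7 interferon-linked members that had one, PARP9, DTX3L, PARP14, PARP12, SAMD9 and DDX60. Of all 35116 windows 3.57% held them, or 4.38% of genes, and GAS letters stood in 7.66% of windows. The stretches below run from 30 bases before the first to 30 after the last ISRE match, 5′ to 3′ on the strand of the gene, with the ISRE letters in capitals. They lie at chr3:122564302-122564371 for both PARP9 (minus strand) and DTX3L (plus), chr3:122680780-122680849 (plus) for PARP14, chr7:140062922-140062991 (minus) for PARP12, chr7:93118076-93118145 (minus) for SAMD9 and chr4:168318766-168318870 (minus) for DDX60.
PARP9: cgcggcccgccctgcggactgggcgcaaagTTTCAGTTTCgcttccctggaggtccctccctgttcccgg
DTX3L: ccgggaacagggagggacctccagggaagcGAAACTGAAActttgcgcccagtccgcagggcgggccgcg
PARP14: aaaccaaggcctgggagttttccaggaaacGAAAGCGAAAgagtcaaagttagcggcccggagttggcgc
PARP12: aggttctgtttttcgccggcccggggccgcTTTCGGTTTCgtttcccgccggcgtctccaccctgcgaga
SAMD9: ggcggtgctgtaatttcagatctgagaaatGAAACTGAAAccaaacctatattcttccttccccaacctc
DDX60: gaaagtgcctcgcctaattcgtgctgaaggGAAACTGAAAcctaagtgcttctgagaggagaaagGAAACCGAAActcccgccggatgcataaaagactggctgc

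PARP9 and DTX3L are transcribed away from each other, and their match is the same 10 bases of chromosome 3, 122564332 to 122564341, read on opposite strands. It began 6 bases before the DTX3L start and 41 bases before one of the 2 annotated PARP9 starts, while the window of the other PARP9 start held neither motif. The PARP12 match ended at the base before its start, the PARP14 match began 29 bases before, and the SAMD9 match began 136 bases before. DDX60 had 2 matches, beginning 88 and 53 bases before its start. GAS letters occurred in PARP14, DDX60 and PARP2. The SAMD9L window at chr7:93148336-93148635 (minus strand) held neither motif and is printed whole because this gene had the largest rise of the 10. A match describes letters and not binding, and a window without one says only that these letters are absent from it.
SAMD9L: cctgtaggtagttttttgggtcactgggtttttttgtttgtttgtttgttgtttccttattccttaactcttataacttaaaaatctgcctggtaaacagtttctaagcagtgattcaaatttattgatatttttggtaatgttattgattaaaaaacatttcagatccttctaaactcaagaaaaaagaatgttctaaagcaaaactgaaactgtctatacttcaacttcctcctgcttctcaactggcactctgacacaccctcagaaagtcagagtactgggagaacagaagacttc

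**Figure D1:**
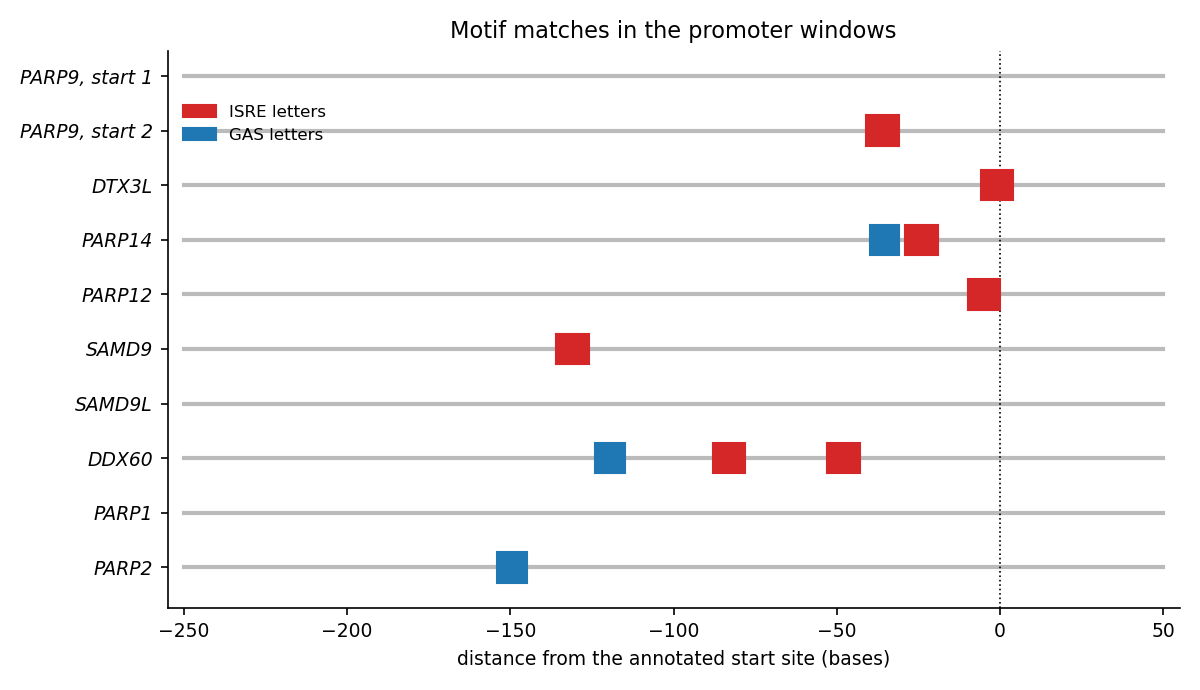
Matches to the ISRE letters (red) and GAS letters (blue) in the promoter window of each gene, against the distance in bases from the annotated start site (dotted line), grey lines being the windows. ISRE matches begin within 136 bases before the start in PARP9, DTX3L, PARP14, PARP12, SAMD9 and DDX60, and SAMD9L, PARP1 and PARP2 have none.

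Among the companion genes, none of the 9 other PARP family members with a window held ISRE letters, nor did PARP1 or PARP2. Of the RNA sensors, IFIH1 and DDX60L held them among 4 with a window. So did 4 of 8 interferon ligands (IFNA1, IFNL1, IFNL2 and IFNL3), 1 of 5 transcription factor and feedback genes, and none of 8 receptors and kinases, 9 genes of ADP-ribose removal or 2 Deltex genes. The 10 genes also differ in neighbourhood. PARP9 (chr3:122527924-122564577, minus strand), DTX3L (chr3:122564338-122575203, plus strand) and PARP14 (chr3:122680839-122730840, plus strand) lie in 1 cluster, and SAMD9 (chr7:93099513-93118023, minus strand) and SAMD9L (chr7:93130056-93148385, minus strand) lie 12032 bases apart. PARP12 (chr7:140023749-140062951, minus strand), DDX60 (chr4:168216291-168318883, minus strand), PARP10 (chr8:143977153-144012772, minus strand), PARP1 (chr1:226360210-226408154, minus strand) and PARP2 (chr14:20343615-20357904, plus strand) stand elsewhere. These gene positions are from GENCODE 44 on GRCh38.

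Reads assigned to genes numbered 65266253 to 108002436 per library. Since the reads carry no molecular identifiers, depth speaks to counting error alone. Levels are given as CPM, reads per 1000000 assigned reads after TMM scaling (trimmed mean of M values). A gene was called when edgeR's quasi-likelihood test gave a Benjamini-Hochberg adjusted p under 0.05 over the 16661 genes tested, and every adjusted p below is of that kind. RBM39 mRNA, which codes for the protein that indisulam removes, was at 332 and 337 CPM in parental untreated and 716 and 731 CPM in parental indisulam cells, and at 299 and 311 CPM in resistant untreated and 577 and 591 CPM in resistant indisulam cells. The 5 epithelial markers summed to 5569 to 5719 CPM in parental and 9299 to 10587 CPM in resistant libraries. KRT8, KRT18, KRT19, EPCAM and CDH1 were all called higher in resistant untreated than in parental untreated cells, as were 30.3% of all tested genes. Off drug these markers were higher in the resistant line by 0.098 to 0.84 log2 units, and the interferon-linked genes by 1.67 to 4.66. Between resistant indisulam and resistant untreated cells, 3 of the 5 markers were called higher and 0 lower. In that comparison 50.7% of all tested genes were called in either direction. The part of these markers in the results was not tested. Markers of other cells were near 0, with 4 leukocyte markers summing to 0.0775 to 0.371 CPM and PTPRC and CD3E at 0 in every library, 4 fibroblast markers to 0.0135 to 0.0832 CPM and 3 endothelial markers to 0.181 to 0.341 CPM. In bulk RNA, fewer cells expressing a gene and less RNA per cell cannot be told apart.

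The first comparison asked how resistant cells off the drug differed from parental cells that never received it. All 8 interferon-linked members were higher in resistant untreated cells, from 3.18-fold for DTX3L to 25.2-fold for SAMD9L, where 30.3% of all tested genes were called higher. Their median log2 fold change was 2.99, against -0.015 over all tested genes. All 8 also rose by more than 1 log2 unit, as did 6.93% of tested genes. PARP2 was 1.16-fold higher, and PARP1 was not called.

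**Figure D2:**
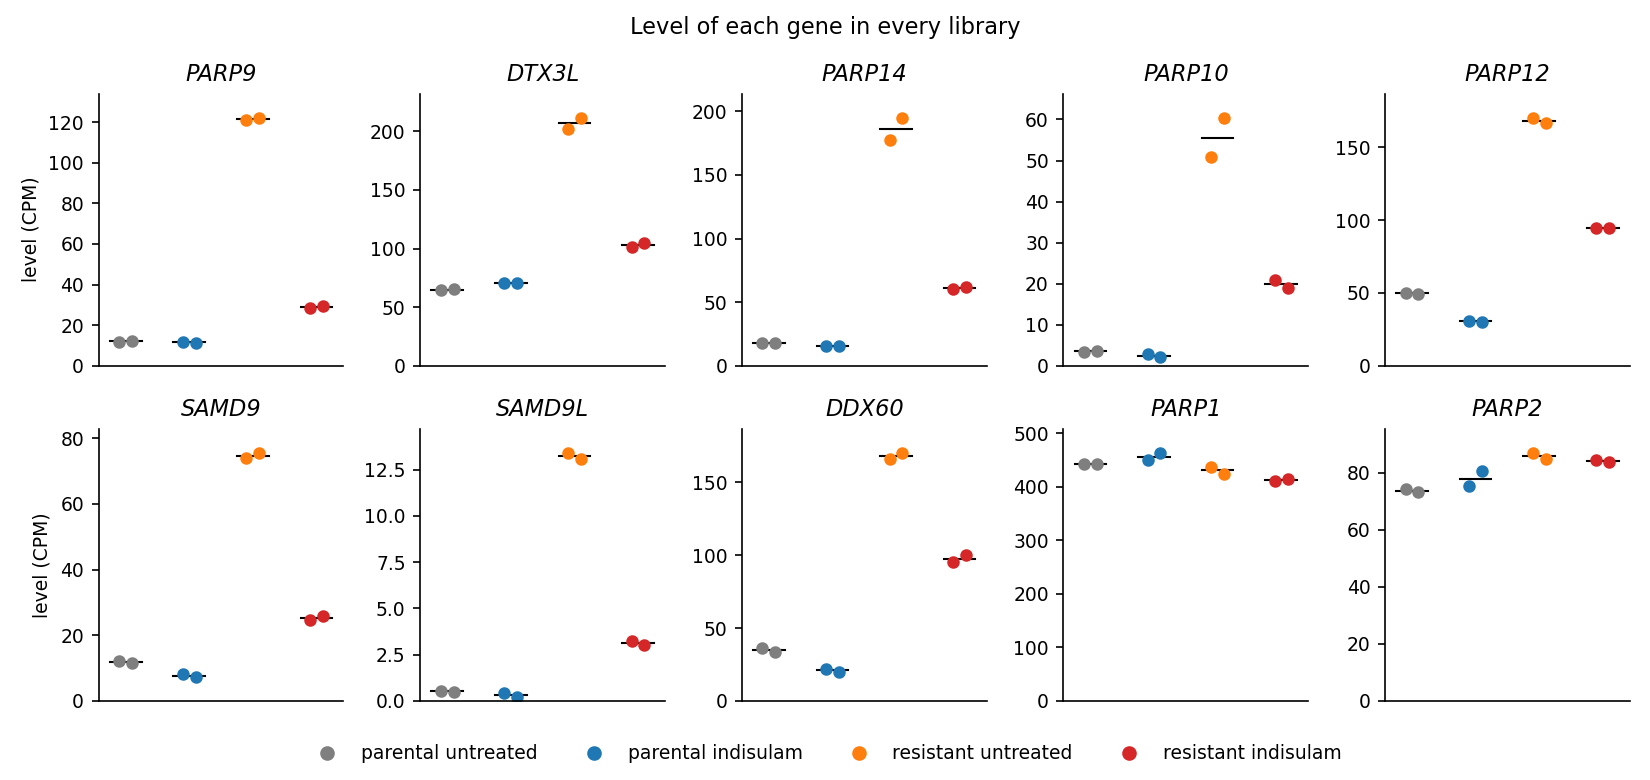
Level in CPM of each of the 10 genes in every library, coloured by group, with the horizontal line at the group mean of 2 libraries and each axis starting at 0. The resistant untreated libraries (orange) are the highest for all 8 interferon-linked genes, followed by resistant indisulam (red), while PARP1 stays between 411 and 463 CPM.

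PARP9, a macrodomain protein that acts in a complex with DTX3L, stood at 11.9 and 12.1 CPM in parental untreated, 11.7 and 11.4 CPM in parental indisulam, 121 and 122 CPM in resistant untreated and 28.3 and 29.6 CPM in resistant indisulam cells. Both parental groups lay close together, and the resistant untreated libraries were far above every other library. The rise off drug was 10.13-fold (95% confidence interval 9.60 to 10.7, log2 fold change 3.34, SE 0.037, adjusted p = 4.03e-27). DTX3L, the ubiquitin ligase of the pair, stood at 64.4 and 65.6 CPM in parental untreated, 70.5 and 70.4 CPM in parental indisulam, 202 and 211 CPM in resistant untreated and 102 and 105 CPM in resistant indisulam cells. It was the more abundant transcript in parental cells, and its rise of 3.18-fold (log2 fold change 1.67, SE 0.031, adjusted p = 5.01e-23) was the smallest of the 8. The confidence intervals of the 2 log2 fold changes, 3.26 to 3.42 for PARP9 and 1.60 to 1.73 for DTX3L, did not overlap, and both genes hold the match printed above. The ratio of PARP9 to DTX3L, per kb of the canonical transcript, was 0.349 and 0.350 in parental cells without drug and 0.316 and 0.307 with it, and 1.14 and 1.09 in resistant cells without drug and 0.527 and 0.534 with it. By this ratio PARP9 passed from the lesser to the slightly greater of the pair in resistant cells off drug. In CPM it stayed below DTX3L in every library. The ratio depends on the length used, the canonical transcripts having 3045 bases for PARP9 and 5768 for DTX3L. All annotated exons together cover 8938 and 5768 bases. The genes overlap head to head over 240 bases, with 139 exon bases in common, 1.56% of PARP9 and 2.41% of DTX3L exon sequence, and how those reads were shared out is not known.

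PARP14, a large mono-ADP-ribosyltransferase with macrodomains, stood at 17.6 and 18.0 CPM in parental untreated, 15.7 and 15.3 CPM in parental indisulam, 177 and 194 CPM in resistant untreated and 60.4 and 61.6 CPM in resistant indisulam cells. The resistant untreated libraries were the highest, resistant indisulam lay between, and the parental groups were low and did not overlap. Its rise off drug was 10.4-fold (95% confidence interval 9.81 to 11.1, log2 fold change 3.38, SE 0.042, adjusted p = 9.91e-24). PARP10, which also adds single ADP-ribose units, stood at 3.39 and 3.64 CPM in parental untreated, 2.81 and 2.04 CPM in parental indisulam, 50.9 and 60.3 CPM in resistant untreated and 20.8 and 18.9 CPM in resistant indisulam cells. It was scarce in parental cells, with 211 and 158 reads in the parental indisulam libraries, and the resistant untreated libraries differed from each other more than for the other members. The rise was 15.8-fold with a wide interval of 12.3 to 20.2 (log2 fold change 3.98, SE 0.14, adjusted p = 2.84e-06). PARP10 shares 324 exon bases with GRINA on the opposite strand, a far more abundant gene with 12768 to 20014 reads, so its lowest levels are uncertain. PARP12, a zinc finger member that restricts several viruses, stood at 50.2 and 49.4 CPM in parental untreated, 31.0 and 30.3 CPM in parental indisulam, 169.9 and 166 CPM in resistant untreated and 94.9 and 94.3 CPM in resistant indisulam cells. No groups overlapped, and both resistant groups lay above both parental ones. It was the most abundant interferon-linked PARP per kb in parental untreated cells and rose 3.38-fold (95% confidence interval 3.23 to 3.53, log2 fold change 1.76, SE 0.030, adjusted p = 1.06e-23).

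SAMD9 and SAMD9L, which restrict poxviruses and cell growth and are mutated in inherited bone marrow disorders, share no 50-base word between their canonical transcripts. SAMD9 stood at 12.3 and 11.5 CPM in parental untreated, 8.11 and 7.22 CPM in parental indisulam, 74.0 and 75.4 CPM in resistant untreated and 24.6 and 25.9 CPM in resistant indisulam cells. No groups overlapped, with resistant untreated the highest and parental indisulam the lowest. It was 6.26-fold higher off drug (95% confidence interval 5.88 to 6.67, log2 fold change 2.65, SE 0.044, adjusted p = 6.49e-24). SAMD9L was far scarcer, at 0.548 and 0.496 CPM in parental untreated, 0.440 and 0.220 CPM in parental indisulam, 13.4 and 13.1 CPM in resistant untreated and 3.26 and 3.05 CPM in resistant indisulam cells. Its parental levels rested on 60 and 53 reads without and 33 and 17 reads with indisulam, against 991 and 848 reads off and 220 and 293 reads on the drug in the resistant line. The rise of 25.2-fold (95% confidence interval 21.3 to 29.9, log2 fold change 4.66, SE 0.12, adjusted p = 2.63e-20) ranked 110 from the top among the 16661 genes. The ratio of SAMD9L to SAMD9, per kb, was 0.0424 and 0.0409 in parental cells without drug and 0.0517 and 0.0289 with it, and 0.172 and 0.165 in resistant cells without drug and 0.126 and 0.112 with it. SAMD9L stayed the lesser paralogue in every library, with a higher ratio in all 4 resistant than in all 4 parental libraries.

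DDX60, a helicase that assists the RNA sensor RIG-I, stood at 36.4 and 33.6 CPM in parental untreated, 22.2 and 19.9 CPM in parental indisulam, 166 and 169.9 CPM in resistant untreated and 95.2 and 99.9 CPM in resistant indisulam cells. The 4 groups were well separated, and the gene was 4.79-fold higher off drug (95% confidence interval 4.49 to 5.12, log2 fold change 2.26, SE 0.045, adjusted p = 5.52e-16). Its paralogue DDX60L shares 0.704% of the 50-base words of DDX60, so few reads could belong to both.

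PARP1, the main poly(ADP-ribose) polymerase at DNA breaks, stood at 443 and 443 CPM in parental untreated, 449.8 and 463 CPM in parental indisulam, 438 and 424 CPM in resistant untreated and 411 and 414 CPM in resistant indisulam cells. All 8 libraries lay within a narrow band, and the difference off drug was not called (log2 fold change -0.038, SE 0.028, adjusted p = 0.249, 95% confidence interval -0.095 to 0.019), although with library totals alone as scaling it was (-0.065 with adjusted p = 0.0329). PARP2, its smaller relative in break repair, stood at 74.3 and 73.1 CPM in parental untreated, 75.3 and 80.4 CPM in parental indisulam, 86.8 and 84.8 CPM in resistant untreated and 84.4 and 83.7 CPM in resistant indisulam cells. The resistant libraries were above the parental ones, by 1.16-fold off drug (95% confidence interval 1.11 to 1.22, log2 fold change 0.22, SE 0.033, adjusted p = 3.50e-06).

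Per kb of canonical transcript, PARP1 was the most abundant of the 10 in each group, at 111 ± 0.00870 CPM per kb (SD, n = 2) in parental untreated and 108 ± 2.47 in resistant untreated cells. In parental untreated cells PARP2 followed at 40.4 ± 0.451, then PARP12 at 16.5 ± 0.195, DTX3L at 11.3 ± 0.144, DDX60 at 5.82 ± 0.332, PARP9 at 3.94 ± 0.0602, PARP14 at 2.31 ± 0.0409, SAMD9 at 1.75 ± 0.0789, PARP10 at 1.003 ± 0.0506 and SAMD9L at 0.0730 ± 0.00516 CPM per kb. In resistant untreated cells PARP12 moved ahead of PARP2, 55.6 ± 0.831 against 47.0 ± 0.754 CPM per kb, PARP9 ahead of DTX3L, 39.9 ± 0.163 against 35.8 ± 1.09, and PARP10 ahead of SAMD9, 15.9 ± 1.91 against 10.97 ± 0.144. Within each group no neighbours in the order had overlapping libraries. The order depends on the transcript length used. In CPM, PARP9 stayed below DTX3L in resistant untreated cells, and PARP10 below SAMD9 (means of 55.6 and 74.7 CPM). Of the summed level per kb of the 17 PARP family genes, PARP9, PARP10, PARP12 and PARP14 held 8.31% and 8.29% in parental and 31.2% and 32.1% in resistant libraries off drug. PARP1 and PARP2 together held 53.1% and 52.9% in parental and 36.8% and 35.8% in resistant libraries off drug. With indisulam the 4 interferon-linked PARPs held 5.85% and 5.52% in parental and 16.7% and 16.6% in resistant cells.

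**Figure D3:**
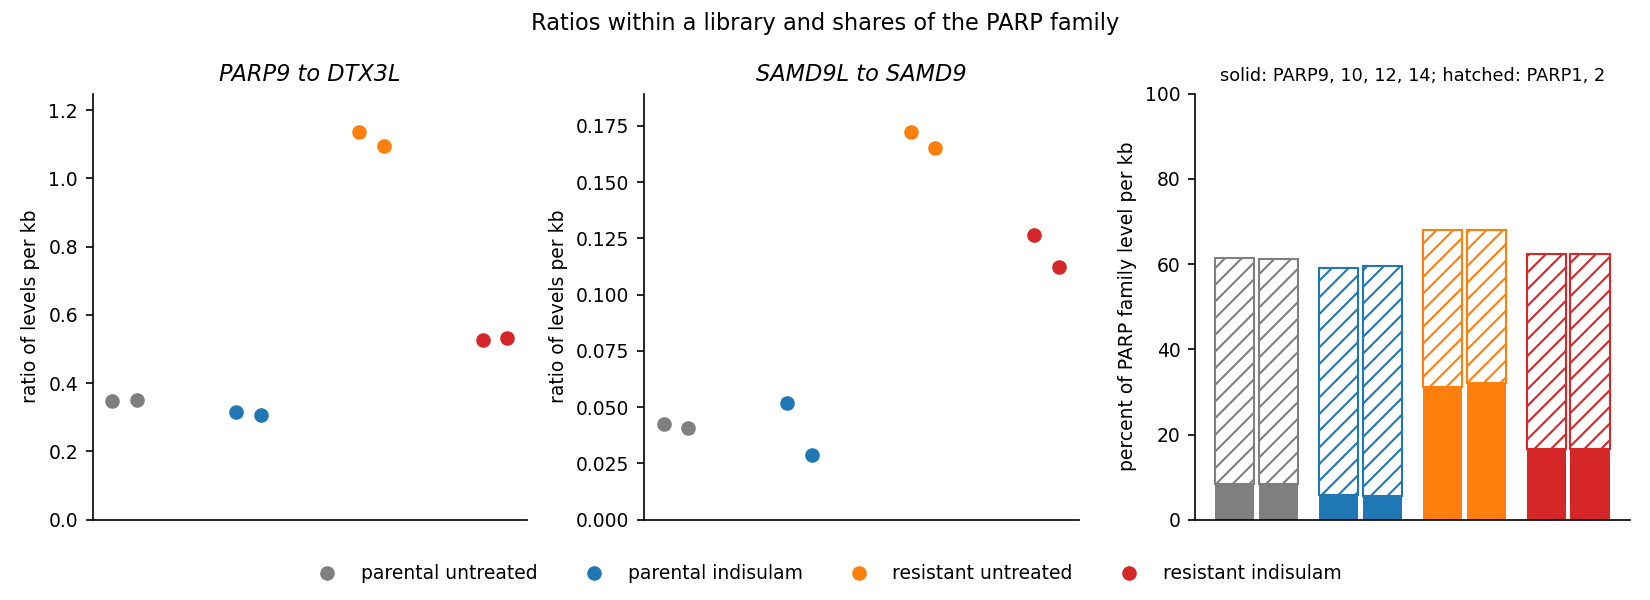
Left and middle, ratio of PARP9 to DTX3L and of SAMD9L to SAMD9, each as level per kb within 1 library, with 1 point per library. Right, percent of the summed level per kb of 17 PARP family genes held by PARP9, PARP10, PARP12 and PARP14 (solid) and by PARP1 and PARP2 (hatched), 1 bar per library. Both ratios and the solid share are highest in resistant untreated libraries, where the solid share is 31.2% and 32.1%.

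The second comparison set cells with indisulam against cells without it in each line. For resistant cells this means cells kept on the drug against cells after a week without it. There, a fall with indisulam and a rise after its withdrawal cannot be told apart. The first comparison used the same untreated libraries, so its rises and the falls below are not independent. Words such as fell and drug response mean only a level with the drug against one without it. In resistant cells all 8 interferon-linked members were lower on the drug than after the drug-free week, with a median log2 fold change of -1.52 against 0.0093 over all tested genes, of which 25.8% were called lower. SAMD9L and PARP9 fell the most, 4.21-fold (log2 fold change -2.07, SE 0.091, adjusted p = 7.50e-15) and 4.19-fold (log2 fold change -2.07, SE 0.035, adjusted p = 4.03e-23), and ranked 32 and 33 from the bottom of 16661 genes. PARP14 fell 3.04-fold (log2 fold change -1.60, SE 0.038, adjusted p = 3.93e-18), SAMD9 2.95-fold (log2 fold change -1.56, SE 0.041, adjusted p = 3.89e-19) and PARP10 2.80-fold (log2 fold change -1.49, SE 0.11, adjusted p = 0.000156). DTX3L fell 1.999-fold (log2 fold change -0.999, SE 0.030, adjusted p = 5.87e-18), PARP12 1.78-fold (log2 fold change -0.83, SE 0.029, adjusted p = 8.99e-17) and DDX60 1.72-fold (log2 fold change -0.78, SE 0.042, adjusted p = 5.01e-10). PARP1 (log2 fold change -0.064, SE 0.028, adjusted p = 0.0584) and PARP2 (log2 fold change -0.030, SE 0.033, adjusted p = 0.474) were not called. Without resistant untreated replicate 2, PARP1 was called at -0.094 with adjusted p = 0.018.

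In parental cells 18 h of indisulam changed 6 of the 8. Of these, 5 were called lower, where 26.6% of all tested genes were, and DTX3L was called higher, where 31.6% were. The median log2 fold change of the 8 was -0.59, against 0.014 over all tested genes. DDX60 fell 1.67-fold (log2 fold change -0.74, SE 0.052, adjusted p = 1.15e-08), PARP12 1.62-fold (log2 fold change -0.70, SE 0.033, adjusted p = 7.32e-14) and SAMD9 1.56-fold (log2 fold change -0.64, SE 0.058, adjusted p = 2.96e-09). SAMD9L fell 1.59-fold (log2 fold change -0.67, SE 0.24, adjusted p = 0.0206), a call that was lost without parental untreated replicate 1 (-0.59 with adjusted p = 0.101) and without parental indisulam replicate 2 (-0.27 with adjusted p = 0.454). PARP14 fell by 0.20 on the log2 scale (SE 0.051, adjusted p = 0.002). DTX3L rose 1.08-fold (log2 fold change 0.12, SE 0.032, adjusted p = 0.00322), and this call too was lost without parental untreated replicate 1 (0.10 with adjusted p = 0.0514) or parental indisulam replicate 2 (0.097 with adjusted p = 0.0501), with library totals alone as scaling (0.050 with adjusted p = 0.193) and with the filter at a mean CPM of 1 (0.060 with adjusted p = 0.103).

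PARP9 was not called in parental cells (log2 fold change -0.051, SE 0.047, adjusted p = 0.373, 95% confidence interval -0.15 to 0.047), nor was PARP10 (log2 fold change -0.54, SE 0.23, adjusted p = 0.106, 95% confidence interval -1.13 to 0.058). PARP10 became called without resistant untreated replicate 1 (-0.56 with adjusted p = 0.00084) or replicate 2 (-0.56 with adjusted p = 0.000802), without a filter on low counts (-0.57 with adjusted p = 7.76e-06), when only the compared groups were fitted (-0.56 with adjusted p = 0.00199) and in the DESeq2 Wald test (-0.53 with adjusted p = 0.0128). PARP9 became called when libraries were scaled by their totals alone (-0.12 with adjusted p = 0.0396) or the filter was set at a mean CPM of 1 (-0.11 with adjusted p = 0.0472). PARP1 was not called (log2 fold change 0.044, SE 0.028, adjusted p = 0.181). PARP2 was called 1.06-fold higher (log2 fold change 0.079, SE 0.033, adjusted p = 0.0436), but in 7 of the 8 fits without 1 library the call was lost, the fit without parental indisulam replicate 1 being the exception, and under 7 of the other 8 alternatives, all but DESeq2 size factors. Log2 fold changes in the fits without 1 library that lost it ran from 0.0098 to 0.091.

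The difference between the drug responses, resistant minus parental, was tested in the same model. The response was called more negative in resistant cells for 7 of the 8 interferon-linked members. Of all tested genes 27.5% were called in that direction and 50.1% in either. The median difference of the 8 was -1.03 log2 units, against 0.010 over all tested genes. PARP9 differed the most (log2 fold change -2.02, SE 0.059, adjusted p = 1.21e-17), followed by PARP14 (log2 fold change -1.40, SE 0.063, adjusted p = 9.39e-13), SAMD9L (log2 fold change -1.40, SE 0.28, adjusted p = 0.000202) and DTX3L (log2 fold change -1.12, SE 0.044, adjusted p = 4.33e-15). PARP10 (log2 fold change -0.95, SE 0.27, adjusted p = 0.0336) and SAMD9 (log2 fold change -0.92, SE 0.073, adjusted p = 8.19e-10) followed. The SAMD9L call was lost without parental indisulam replicate 1 (-0.81 with adjusted p = 0.0915). The PARP10 call was lost without parental untreated replicate 1 (-0.90 with adjusted p = 0.102) or 2 (-1.004 with adjusted p = 0.0785), parental indisulam replicate 1 (-0.69 with adjusted p = 0.142) or resistant indisulam replicate 2 (-0.86 with adjusted p = 0.0677), and with library totals alone (-0.84 with adjusted p = 0.051).

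PARP12 and DDX60 had the smallest differences of the 8. That of DDX60 was -0.045 (95% confidence interval -0.19 to 0.098, adjusted p = 0.608) and was not called. The PARP12 difference was small (log2 fold change -0.13, SE 0.044, adjusted p = 0.0172) and fell to -0.015 with adjusted p = 0.798 with library totals alone as scaling and to -0.046 with adjusted p = 0.376 with a filter at a mean CPM of 1. It also lost its call in 6 of the 8 fits without 1 library, with values of -0.13 to -0.091 and adjusted p of 0.0608 to 0.16, the exceptions being those without parental untreated replicate 1 or resistant untreated replicate 2. The PARP1 difference (log2 fold change -0.11, SE 0.039, adjusted p = 0.0251) lost its call in 7 of these 8 fits, with values of -0.11 to -0.061, went to -0.023 with adjusted p = 0.62 with the filter at a mean CPM of 1, and changed sign to 0.0070 when libraries were scaled by their totals alone. That scaling moved the median of all tested genes in this comparison from 0.010 to 0.13 log2 units. For PARP2 the difference was not called (log2 fold change -0.11, SE 0.047, adjusted p = 0.056), although it was without parental indisulam replicate 1 (-0.14 with adjusted p = 0.0263) and with DESeq2 size factors (-0.12 with adjusted p = 0.0385). The 8 interferon-linked genes thus ranged from no detectable difference between the lines to a difference of -2.02 log2 units.

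**Figure D4:**
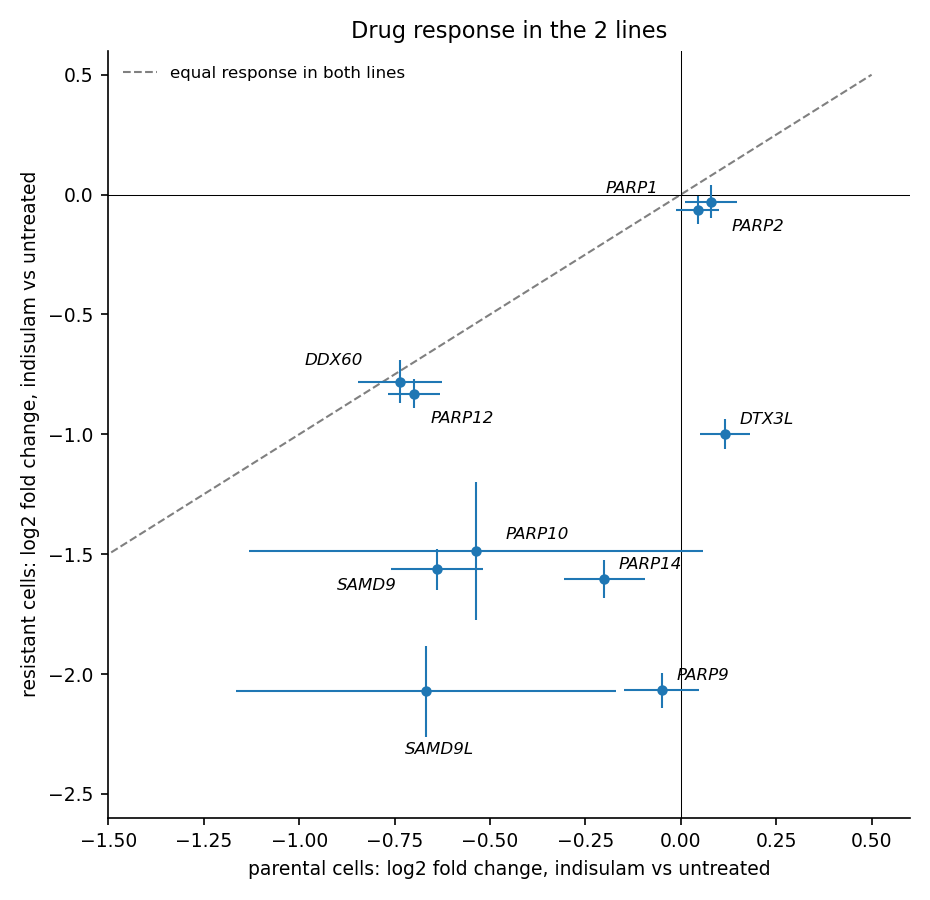
Log2 fold change with indisulam in resistant cells (vertical axis) against parental cells (horizontal axis) for the 10 genes, with 95% confidence intervals and the line of equal response (dashed). DDX60 and PARP12 lie on or beside the line, PARP9, DTX3L and PARP14 lie far below it near -0.051, 0.12 and -0.20 on the horizontal axis, and PARP1 and PARP2 lie near 0 on both axes.

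The remaining comparisons asked how resistant cells kept on indisulam stood against parental cells. Against parental cells on indisulam all 8 were higher (34.6% of all tested genes were), with a median log2 fold change of 1.85 against 0.0032 over all tested genes. The extremes were SAMD9L (9.54-fold, log2 fold change 3.25, SE 0.17, adjusted p = 4.77e-14) and DTX3L (1.47-fold, log2 fold change 0.55, SE 0.032, adjusted p = 1.71e-13). PARP10 was 8.17-fold, DDX60 4.65-fold, PARP14 3.94-fold, SAMD9 3.30-fold, PARP12 3.08-fold and PARP9 2.50-fold higher. PARP1 was lower (log2 fold change -0.15, SE 0.028, adjusted p = 6.03e-05), as were 34.9% of all tested genes, and PARP2 higher (log2 fold change 0.11, SE 0.033, adjusted p = 0.0051), the PARP2 call being lost without parental indisulam replicate 1 (0.086 with adjusted p = 0.0624). Against untreated parental cells, resistant cells on the drug again had all 8 higher (32.2% of all tested genes were), with a median of 1.38 against -0.014. They ranged from 1.59-fold for DTX3L (log2 fold change 0.67, SE 0.031, adjusted p = 3.78e-15) to 6.002-fold for SAMD9L (log2 fold change 2.59, SE 0.14, adjusted p = 1.05e-13). PARP12 (1.90-fold), SAMD9 (2.12-fold), PARP9 (2.42-fold), DDX60 (2.79-fold), PARP14 (3.43-fold) and PARP10 (5.63-fold) lay between. PARP1 was lower at -0.10 (SE 0.028, adjusted p = 0.00248), as were 32.6% of all tested genes, and PARP2 higher at 0.19 (SE 0.033, adjusted p = 2.00e-05) on the log2 scale. These comparisons share libraries with the earlier ones and are not independent of them. For every member the libraries of the groups compared did not overlap in any of the 5 pairwise comparisons, which was also so for 73.0% to 83.8% of all tested genes.

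**Figure D5:**
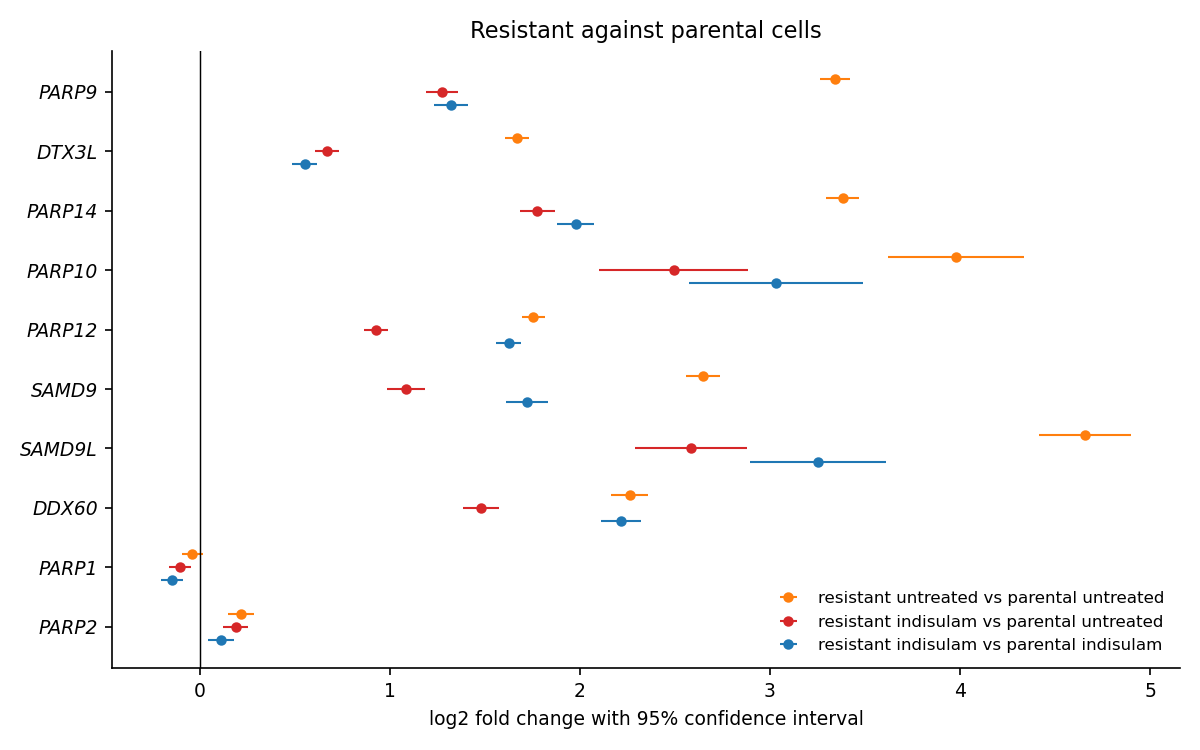
Log2 fold change of each gene in resistant against parental cells, with 95% confidence intervals, for both lines off drug (orange), resistant indisulam against parental untreated (red) and both lines on indisulam (blue). All intervals of the 8 interferon-linked genes lie above 0, the orange points being the farthest right, whereas PARP1 and PARP2 lie within -0.15 and 0.22 log2 units.

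Of 11 other members of the PARP family 10 were tested, PARP15 having at most 3 reads in any library. Off drug, 7 were higher and 2 lower in resistant cells, where 60.1% of all tested genes were called in either direction, with a median log2 fold change of 0.22, and the largest rise was that of ZC3HAV1 (1.13), an antiviral protein that binds CpG-rich RNA. TNKS2, a tankyrase, had the largest fall (-0.48). On indisulam 5 fell and 2 rose in resistant cells, where 50.7% of all tested genes were called either way (median -0.069, ZC3HAV1 -0.36, and PARP6 the lowest at -0.48). In parental cells 6 rose and 3 fell, where 58.2% of all tested genes were called either way (median 0.17), TIPARP rising the most (0.39). Among enzymes that remove ADP-ribose and partners of PARP1, 8 of 9 were tested, and off drug 5 were higher and 2 lower, led by the mono-ADP-ribose hydrolase MACROD2 (0.59). On indisulam 6 fell and 1 rose in resistant cells (MACROD2 -0.50), and 4 fell and 1 rose in parental cells (MACROD1 -0.55). Of the Deltex ligases related to DTX3L, DTX1 and DTX3 were not tested. DTX4 stood at 7.11 and 6.64 CPM in parental untreated, 6.51 and 6.26 CPM in parental indisulam, 52.5 and 53.2 CPM in resistant untreated and 34.9 and 35.8 CPM in resistant indisulam cells, a log2 fold change of 2.94 off drug, whereas DTX2 was lower (-0.44). With indisulam DTX4 changed by -0.58 in resistant cells and was not called in parental cells (-0.11).

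Among the RNA sensors that DDX60 is linked to, 4 of 5 were higher off drug, DDX60L (3.10), DHX58 (2.75), IFIH1 (2.67) and RIGI (2.63), while their adaptor MAVS was lower (-0.084). On indisulam the same 4 fell in resistant cells, IFIH1 the most (-1.78), and MAVS rose (0.21). In parental cells 3 fell, DHX58 the most (-1.54), and RIGI was not called (0.061). The DHX58 fall rested on 51 and 57 reads without and 14 and 12 with drug. Of 7 interferon transcription factors and feedback genes tested, 5 were higher and 1 lower off drug, 5 fell and 2 rose with indisulam in resistant cells, and 5 fell in parental cells. Beside the counts of both lists, 60.1% of all tested genes were called in either direction off drug. With indisulam the share was 50.7% in resistant and 58.2% in parental cells. USP18, which dampens receptor signalling, led at 4.58 off drug and -2.45 on indisulam in resistant cells. STAT2 (1.26) and IRF9 (2.38) were also higher off drug, although 23.9% of IRF9 exon bases lie in another annotated gene on the same strand. IRF7 had at most 4 reads in any library and was not tested.

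All 9 receptor chains and kinases were tested. Off drug 5 were higher and 3 lower (of all tested genes 60.1% were called), with a median log2 fold change of 0.16, from TYK2 (-0.75) to IFNGR2 (1.19), a subunit of the interferon gamma receptor with 15% of its exon bases opposite TMEM50B. IFNLR1, a subunit of the type III interferon receptor, was at 0.75. On indisulam 4 rose and 2 fell in resistant cells (called over all tested genes 50.7%), and 5 rose and 2 fell in parental cells (called over all 58.2%). The largest fall in parental cells was that of IL10RB (-2.29), a receptor chain shared by type III interferons, which rested on 15 and 14 reads without and 1 and 3 with drug. That call was lost without parental indisulam replicate 1 (-1.77 with adjusted p = 0.0525), and 21.6% of IL10RB exon bases lie in an annotated read-through gene. Of 8 interferon ligands only IFNE, an epithelial type I interferon, passed the filter on low counts, and it was lower off drug (-1.65) and in parental cells on indisulam (-1.02). IFNB1 had 0 and 0 reads in parental cells off drug and 0 and 1 on it, against 9 and 5 in resistant cells off drug and 2 and 5 on it. IFNL1 had 2 and 1 reads in parental cells without drug and 0 and 0 with it, and 12 and 8 in resistant cells without drug and 5 and 8 with it. These genes did not pass the filter on low counts, and a count of 0 allows up to 3 reads. IFNA1, IFNL2 and IFNG had no read in any library, IFNL3 at most 1 and IFNK at most 2.

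Patterns were compared by Euclidean distance over 3 log2 fold changes, the drug response in each line and the lines off drug. This distance depends on the size of the changes. Genes that change little lie close together, and genes that move alike by unlike amounts lie apart. Among the members, PARP1 and PARP2 were closest (0.261 log2 units), then PARP9 and PARP14 (0.489) and PARP12 and DDX60 (0.510). PARP9 and DTX3L, whose proteins act in a complex, were 1.99 apart, and SAMD9 and SAMD9L 2.07. By this measure DTX3L lay nearer to PARP2 (1.74) and PARP1 (1.95) than to PARP9. Yet DTX3L and PARP9 moved in the same direction off drug and with indisulam in resistant cells. Among all other tested genes with a symbol and a mean log2 CPM of at least 1, those near to the median of the 8 included DDX60L (0.481), IFIH1 (0.539), HERC6 (0.600) and IFIT1 (0.678), the last a protein that binds viral RNA ends. DDX60L, IFIH1 and IFIT1 held ISRE letters in a promoter window, as do 4.38% of genes, and the HERC6 window held none. UBE2L6, the conjugating enzyme for the ubiquitin-like ISG15, was nearest to PARP9 (0.689) and to PARP14 (0.335), followed by the DNA sensor IFI16 for PARP9 (0.702) and the adhesion protein AMIGO2 for PARP14 (0.576). TRANK1 (0.535) and AMIGO2 (0.581) were nearest to PARP10, and the butyrophilin BTN3A3 (0.0876) and the ubiquitin ligase TRIM21 (0.241) to DTX3L. For SAMD9 they were IFIH1 (0.451) and IFI35 (0.458), and for SAMD9L USP18 (0.607) and SP110 (0.922). PARP12 had MILR1 (0.287) and IMPDH1 (0.391), an enzyme of guanine nucleotide synthesis, and DDX60 had the fatty acid transporter SLC27A1 (0.196) and MYH16 (0.263). PARP1 was nearest to RBBP6 (0.0157) and LTA4H (0.0222), and PARP2 to FAM83B (0.0213) and PARL (0.0285).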

How the data were processed

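RNA of 8 Panc10.05 libraries was sequenced, and the authors deposited raw read counts per gene for each. Per the study's methods, stranded libraries of polyadenylated RNA were read as paired ends, trimmed with SeqPurge and aligned to GRCh38. The submitters' processing notes name HISAT2 2.2.1, Picard and HTSeq. The strand setting and annotation of the counting were not given in the sources used here. Each table held 60675 genes and 9 lines of unassigned reads, which stayed out of library sizes. Reads marked as duplicates (14.1% to 18.4% of all) and reads overlapping several genes were among those lines, so abundant genes may be understated. GENCODE 44 matched 60419 identifiers and gave symbols, positions and canonical transcript lengths.

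Groups came from the titles. The counts were tested with edgeR 4.0.16 (R 4.3.3). After filterByExpr and TMM scaling, 4 group means were fitted to all 8 libraries by robust quasi-likelihood with 4 residual degrees of freedom, and 6 contrasts were tested with Benjamini-Hochberg adjustment over 16661 genes. The SE was the log2 fold change divided by the square root of F. An exact permutation test of 2 against 2 libraries cannot pass 0.05 and was not used. The 10 genes, the companion lists and the tests were chosen with earlier results of these data known. Besides the 10, the text names from each list those with the largest changes or no call, and the genes nearest in pattern (5 to the median of the 8, 2 to each member). Some genes that this rule covers are not reported here. The code was checked on simulated counts. Libraries of a group differed by more than sampling noise (mean chi-square per gene 2.07 to 6.33). Alternatives were DESeq2 1.42.0 size factors, library totals, the DESeq2 Wald test, leaving the filter out or setting it at a mean CPM of 1, fitting the compared groups alone, a block for replicate number, glmTreat against 0.5 log2 units and each library left out. Protein sequences were not used here. Plots were made in Python 3.11.15 with matplotlib 3.10.9.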

Additional observations from a re-analysis of the deposited data

Results flagged for a closer look

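The response to indisulam differed between resistant and parental cells, by edgeR's quasi-likelihood test of the difference itself (adjusted p under 0.05 over all tested genes), for 8 of the 10 genes. The differences, resistant minus parental in log2 units, were PARP9 (-2.02), PARP14 (-1.40), SAMD9L (-1.40), DTX3L (-1.12), PARP10 (-0.95), SAMD9 (-0.92), PARP12 (-0.13) and PARP1 (-0.11). Those of PARP12 and PARP1 were the smallest and were lost in most of the fits without 1 library, as given above. Among the companion lists, the difference was called negative for 6 of 10 other PARP genes tested, among them ZC3HAV1 (-0.18), TIPARP (-0.37) and PARP6 (-0.15). Such a call was also made for 5 of 8 genes of ADP-ribose removal, among them MACROD2 (-0.61), and for 1 of 2 Deltex genes, DTX4 (-0.47). The difference was called negative for 3 of 5 RNA sensors, RIGI (-1.04), IFIH1 (-1.54) and DDX60L (-0.47), and for 3 of 9 receptors and kinases, among them IFNGR2 (-0.43). So it was for 4 of 7 transcription factor and feedback genes, among them STAT2 (-0.27) and USP18 (-2.25). It was called positive for 2 genes of ADP-ribose removal, among them MACROD1 (0.40), and for the ligand IFNE (1.36). Positive calls were also made for 3 receptors and kinases, IFNLR1 (0.42), TYK2 (0.39) and IL10RB (3.09), and for 1 transcription factor or feedback gene. IL10RB had 1 to 23 reads in a library. Of the genes nearest in pattern to a member, HERC6 (-1.11), IFIT1 (-1.23), UBE2L6 (-1.44), IFI16 (-1.82), AMIGO2 (-1.55), BTN3A3 (-1.04), TRIM21 (-1.08), IFI35 (-1.22), SP110 (-2.69) and LTA4H (-0.12) differed, but these were chosen on the same 2 responses, so their differences are a description. The share of all tested genes with a called difference was 50.1%, so a call alone sets no gene apart. Drug exposure lasted 18 h in parental cells and was continuous in resistant cells, whose untreated group had been withdrawn from the drug for a week. Line, length of exposure and withdrawal cannot be told apart. No group had enough libraries for a search for outlying samples.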

How the results depend on the processing

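Each of the 60 log2 fold changes of the 10 genes (6 comparisons each) was recomputed under up to 16 alternatives, giving 950 values. Of these, 880 kept their direction and side of the threshold, 58 lost a call, 11 gained one and 1 changed sign, the difference of responses of PARP1 (0.0070 with library totals alone). In resistant cells, and between the lines, all 8 interferon-linked genes kept their calls under each alternative, except DTX3L between the lines on indisulam in the glmTreat test (0.55 with adjusted p = 0.0692). That test asks for more than 0.5 log2 units, so fewer genes pass by construction, 1042, 879, 2582, 3509, 2978 and 908 over all genes for the drug in parental cells, the drug in resistant cells, the lines off drug, the lines on drug, resistant indisulam against parental untreated, and the difference of responses. It called 2 of the 10 for the drug in parental cells and 5 for the difference of responses. The reported fit called 7 and 8, where 58.2% and 50.1% of all tested genes were called. Library totals alone lost the differences of PARP10, PARP12 and PARP1, as given above. Some fits without 1 library lost the calls of SAMD9L, DTX3L and PARP2 for the drug in parental cells. For the difference of responses some lost those of PARP10, PARP12, SAMD9L and PARP1, as given above. Calls pooled over the 6 comparisons in the companion lists fell in the glmTreat test to 4 from 46 in the PARP family, to 0 from 35 in ADP-ribose removal, to 3 from 10 in the Deltex family, to 10 from 43 in receptors and kinases and to 22 from 35 in transcription factors. For the ligands they were 9 without a filter, against 4, and 4 to 7 without 1 library, with 7 without parental untreated replicate 1, either parental indisulam library, resistant untreated replicate 2 or resistant indisulam replicate 1. Library totals alone moved the share of calls that were higher from 54.3% to 42% for the drug in parental cells, from 49.1% to 59.7% in resistant cells and from 45.2% to 65.8% for the difference. For the named companion genes 3531 of 3697 values kept direction and call, and none reversed.

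Same-numbered libraries did not deviate together over all genes (correlations -0.0580 to 0.0272 over 6 pairs of groups). Whether the numbers mark a pairing of the samples cannot be told from this. With the replicate number as a block, 6, 8, 9, 10, 10 and 8 of the 10 genes were called in the 6 comparisons, in the same order. Without the block, 9690, 8446, 10021, 11579, 10798 and 8351 of all 16661 tested genes were called in them, so most calls set no gene apart. The block ended the PARP2 call in parental cells (0.079 with adjusted p = 0.0544) and changed no other member's call.

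With 2 technical replicates in a group, precision between cultures cannot be judged. SAMD9L rested on 17 to 60 reads in the parental libraries.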

Other observations

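PARP14 and PARP9, which lie in 1 cluster on chromosome 3, kept a similar proportion in most libraries. The ratio of PARP14 to PARP9, per kb, was 0.587 and 0.589 in parental cells without drug and 0.531 and 0.529 with it, and 0.578 and 0.632 in resistant cells without drug and 0.846 and 0.825 with it. The resistant libraries on the drug were the highest. The ratio of DDX60 to SAMD9 was 3.35 and 3.29 without and 3.09 and 3.12 with drug in parental cells, and 2.53 and 2.55 without and 4.38 and 4.37 with drug in resistant cells, lowest in resistant untreated and highest in resistant indisulam libraries. These pairs were chosen after the levels had been seen, and the ratios were not tested.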
